A study of Homo sapiens with 38 samples.

Results

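The genes described here are 10 human genes that serve as the classical readout of the IRE1α/XBP1 and ATF6 arms of the unfolded protein response: ERN1, XBP1, HSPA5, HSP90B1, SDF2L1, DNAJB9, DNAJC3, HERPUD1, SEL1L and EDEM1. They were taken by name from the count tables, which list 50652 genes for BE2C cells and 50778 for the other lines. All 10 were listed in every library and all 10 passed the filter on low counts in each fit, with between 96 and 259485 counts per gene and library.

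Endoplasmic reticulum (ER) stress is sensed in the ER membrane by IRE1α (the product of ERN1), ATF6 and PERK. IRE1α splices XBP1 mRNA into the form that encodes an active transcription factor, ATF6 is cut free by the site proteases in the Golgi, and together they raise the chaperones of the ER lumen and the machinery of ER-associated degradation (ERAD), which pulls misfolded proteins out to the proteasome. PERK instead acts through phosphorylation of eIF2α and translation of ATF4, a branch that is also switched on without ER stress, for example by amino acid shortage. The chaperones and ERAD genes are therefore read beside the ATF4 targets when the origin of an ATF4 response is in question. Gene-level counts do not separate spliced from unspliced XBP1 mRNA, so only the total XBP1 transcript was measured.

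The study treated human neuroblastoma cell lines and measured total RNA by sequencing. BE2C cells, a MYCN-amplified line, received 2.5 µM GSK-J4 for 0, 24 or 48 h (2 libraries at each time), or control siRNA (siCtrl, 2 libraries) or 1 of 3 siRNAs to KDM6B (named N1, N2 or N33, 1 library each) for 72 h. GSK-J4 is a cell-permeable pro-drug that cells convert to GSK-J1, an inhibitor of the H3K27 demethylases KDM6A and KDM6B. The paper also reports some effect of GSK-J1 on KDM5A. CHLA15 and CHLA20 cells received 300 nM and NB1643 and NB1691 cells 3 µM palbociclib, an inhibitor of CDK4 and CDK6, for 72 h, each beside an untreated control of the same line (2 libraries a group). The 0 h libraries served as control for both GSK-J4 times, so the treatment and the time in culture cannot be told apart, and the sources used here do not say whether the libraries of a group came from separate cultures. P-values then measure the spread between these libraries, which may be technical.

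Library totals ran from 36186567 to 63433818 counts in the GSK-J4 libraries, from 41227956 to 50776662 in the siRNA libraries and from 45457371 to 93011010 in the palbociclib libraries. The spread between libraries of a group, as edgeR's common biological coefficient of variation, was 0.0219, 0.35 and 0.0523 in these experiments. The siRNAs to KDM6B were fitted as a single group, so that 0.35 includes differences between them. All 7 neuroblastoma markers examined (PHOX2A, HAND2, GATA3, ISL1, DBH, TH and CHGA) had counts in every library, but NB1691 stood apart: their summed level was 389 to 602 CPM there (counts per 1000000 counts of the library) against 1924 to 2859 CPM in the other palbociclib lines, TH averaged 0.72 CPM in untreated NB1691 cells, and LUM, a matrix gene of fibroblasts, reached 1743 to 2129 CPM against 6.99 to 70.1 CPM in the other palbociclib lines. The 8 markers of other cell types (those of blood, endothelium, liver, epithelium and fibroblasts) summed to 1771 to 2155 CPM in NB1691 and to 8.01 to 182 CPM in the other palbociclib lines. What this difference contributes to the values of NB1691 given here was not tested.

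The upstream sequences of the members were examined for the elements to which the XBP1, ATF6 and ATF4 proteins are known to bind, because the GSK-J4 response divided genes that share them. In the RefSeq promoter windows (GRCh38.p14, 250 bases before to 50 after each transcription start, 10 of 10 members matched by symbol), the ER stress response element ERSE, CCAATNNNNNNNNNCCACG on either strand, lay in the windows of HSPA5, HSP90B1 and XBP1 (in 1 of the 2 XBP1 windows), against 0.0769% of all 35116 promoter windows. The shorter ERSE-II, ATTGGNCCACG, lay in those of SDF2L1 and HERPUD1, against 0.0541% of all windows. The C/EBP-ATF response element CARE, TGATGNAA, lay in the HERPUD1 window alone of the 10, against 3.62% of all windows, and the core TGACGTGG of the unfolded protein response element lay in none of them, against 0.729% of all windows. No listed motif lay in the windows of ERN1, DNAJB9, DNAJC3, SEL1L or EDEM1, which says only that these letters are not in these windows. The matches in the 5 members did not overlap each other.

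The 250 bases before the start of each gene with a match are shown 5′ to 3′ on the gene's own strand, with the fixed letters of a match in capitals, since these are the members with the same elements and different responses. They are chr9:125241344-125241593 (minus strand) for HSPA5, chr12:103930160-103930409 (plus) for HSP90B1, chr22:21642052-21642301 (plus) for SDF2L1, chr22:28800570-28800819 (minus) for XBP1 and chr16:56931892-56932141 (plus) for HERPUD1, all in GRCh38.p14. HSP90B1 holds 2 ERSE matches, on opposite strands, and HERPUD1 holds CARE (the first capitals) and then ERSE-II.
HSPA5: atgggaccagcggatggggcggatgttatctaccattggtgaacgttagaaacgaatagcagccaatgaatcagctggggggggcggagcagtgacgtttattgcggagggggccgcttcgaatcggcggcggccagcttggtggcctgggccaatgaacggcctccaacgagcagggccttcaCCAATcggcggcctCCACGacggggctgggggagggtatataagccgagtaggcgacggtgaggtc
HSP90B1: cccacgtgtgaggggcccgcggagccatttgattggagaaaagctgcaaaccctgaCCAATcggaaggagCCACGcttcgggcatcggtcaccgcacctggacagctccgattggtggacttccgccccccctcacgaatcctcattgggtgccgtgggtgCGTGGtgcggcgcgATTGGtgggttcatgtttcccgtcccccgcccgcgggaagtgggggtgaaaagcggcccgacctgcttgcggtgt
SDF2L1: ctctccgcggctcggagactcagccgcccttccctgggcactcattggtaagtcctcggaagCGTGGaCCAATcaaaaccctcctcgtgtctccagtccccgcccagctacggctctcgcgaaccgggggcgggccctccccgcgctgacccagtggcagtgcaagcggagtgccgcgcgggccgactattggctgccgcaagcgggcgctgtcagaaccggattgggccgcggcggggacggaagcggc
XBP1: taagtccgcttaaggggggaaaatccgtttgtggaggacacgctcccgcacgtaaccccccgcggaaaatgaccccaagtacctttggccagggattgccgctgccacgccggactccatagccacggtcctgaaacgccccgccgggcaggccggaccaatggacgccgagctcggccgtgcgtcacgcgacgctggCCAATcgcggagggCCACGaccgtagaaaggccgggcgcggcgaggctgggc
HERPUD1: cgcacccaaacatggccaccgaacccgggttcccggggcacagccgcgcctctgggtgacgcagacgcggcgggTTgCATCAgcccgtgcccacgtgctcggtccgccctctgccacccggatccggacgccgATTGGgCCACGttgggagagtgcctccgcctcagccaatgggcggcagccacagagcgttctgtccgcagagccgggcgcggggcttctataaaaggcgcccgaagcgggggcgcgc

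With GSK-J4, BE2C cells raised the sensor, the transcription factor, the ERAD genes, DNAJB9 and, least, DNAJC3, and lowered the remaining members, all of the chaperone machinery. All 10 members passed the test at both times, 7 higher and 3 lower. Among all 17734 genes tested, 27.3% were called higher and 28% lower at 24 h, and 37.1% higher and 34.4% lower at 48 h (edgeR quasi-likelihood test, Benjamini-Hochberg adjusted p under 0.05), so a call by itself was common. HSPA5, HSP90B1 and SDF2L1, of the chaperone machinery, were the 3 that fell. The summed neuroblastoma markers were 3247 to 3304 CPM at 0 h, 3421 to 3427 CPM at 24 h and 2784 to 2785 CPM at 48 h, where 6 of the 7 markers were lower, and the summed markers of other cell types were 13.1 to 13.8 CPM at 0 h, 5.35 to 6.08 CPM at 24 h and 7.78 to 7.99 CPM at 48 h. Of the 3 of these that were tested, LUM and DCN were lower and EPCAM higher at both times, and the part of either marker list in the result was not tested. In bulk RNA, fewer cells with a transcript and less of it per cell cannot be told apart.

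ERN1 encodes IRE1α, the sensor whose nuclease splices XBP1 (chr17:62116440-62208179, minus strand, GRCh37). It read 3.42 and 2.70 CPM at 0 h, 16.8 and 18.7 CPM at 24 h, and 18.9 and 19.5 CPM at 48 h. All 4 treated libraries lay far above both 0 h libraries, with log2 fold changes of 2.53 ± 0.10 (SE, n = 2 against 2) at 24 h and 2.65 ± 0.098 at 48 h, the highest of the 10 members. It was also the member with the lowest level, 0.388 CPM per kilobase at 0 h. XBP1, the factor that IRE1α activates (chr22:29190543-29196585, minus strand), read 141 and 137 CPM at 0 h, 301 and 306 CPM at 24 h, and 242 and 254 CPM at 48 h. Its total transcript therefore stood above the control libraries at both times and higher at 24 h than at 48 h, with log2 fold changes of 1.13 ± 0.031 and 0.84 ± 0.031.

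HSPA5 encodes BiP, the principal Hsp70 chaperone of the ER lumen and the usual marker of ER stress (chr9:127997132-128003661, minus strand). It read 302 and 305 CPM at 0 h, 255 and 247 CPM at 24 h, and 272 and 263 CPM at 48 h. The treated libraries were all below both controls, by a log2 fold change of −0.27 ± 0.029 at 24 h (adjusted p = 4.78e-11, edgeR) and −0.18 ± 0.029 at 48 h (adjusted p = 5.23e-07, edgeR), and the 95% interval at 24 h, −0.33 to −0.21, holds no increase. Over the alternative fits the HSPA5 change ran from −0.29 to −0.23 at 24 h and from −0.21 to −0.07 at 48 h. The size of the fall at 48 h thus depended on the processing. HSP90B1 encodes GRP94, the Hsp90 chaperone of the ER (chr12:104323885-104347709, plus strand). It read 1075 and 1101 CPM at 0 h, 848 and 823 CPM at 24 h, and 901 and 945 CPM at 48 h, with log2 fold changes of −0.38 ± 0.028 and −0.24 ± 0.028. Its gene overlaps UQCC6 on the opposite strand over 13169 bases, and how the counting treated strand is not given in the sources used here, so that reads of these genes cannot be told apart there.

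SDF2L1, a partner of BiP and of its J-domain co-chaperones (chr22:21996591-21998588, plus strand), fell the furthest. It read 20.6 and 18.2 CPM at 0 h, 9.94 and 9.72 CPM at 24 h, and 6.99 and 5.81 CPM at 48 h, so that the groups did not overlap and the level went down at each time. The log2 fold changes were −0.98 ± 0.081 at 24 h and −1.59 ± 0.084 at 48 h, where 0.333 of the 0 h level remained. The other co-chaperones went the other way. DNAJB9 (ERdj4), which presents IRE1α and misfolded proteins to BiP (chr7:108210311-108215294, plus strand), read 19.8 and 19.2 CPM at 0 h, 29.1 and 27.9 CPM at 24 h, and 44.4 and 42.2 CPM at 48 h. All treated libraries were above the controls, and those at 48 h were above those at 24 h, with log2 fold changes of 0.55 ± 0.057 and 1.15 ± 0.053. DNAJC3 (p58IPK), which also restrains PERK (chr13:96329393-96447242, plus strand), moved least, from 91.4 and 90.4 CPM to 103 and 103 CPM at 24 h and 99.4 and 102 CPM at 48 h (log2 fold changes 0.18 ± 0.035 and 0.15 ± 0.034).

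The ERAD members all rose. HERPUD1, a scaffold of the ubiquitin ligase complex in the ER membrane (chr16:56966054-56978776, plus strand), read 78.8 and 79.6 CPM at 0 h, 182 and 186 CPM at 24 h, and 166 and 173 CPM at 48 h. SEL1L, the adaptor that holds substrates at the ligase HRD1 (chr14:81937891-82000197, minus strand), read 63.7 and 61.4 CPM at 0 h, 124 and 122 CPM at 24 h, and 134 and 134 CPM at 48 h. EDEM1, which helps to pick out misfolded glycoproteins by their trimmed mannose (chr3:5229331-5261643, plus strand), read 15.0 and 14.2 CPM at 0 h, 35.4 and 36.6 CPM at 24 h, and 28.0 and 25.7 CPM at 48 h. In none of these genes did a treated library reach down to a control library. The log2 fold changes at 24 h were 1.22 ± 0.034, 0.97 ± 0.036 and 1.30 ± 0.061 for HERPUD1, SEL1L and EDEM1, and at 48 h 1.09 ± 0.034, 1.10 ± 0.035 and 0.88 ± 0.062.

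**Figure D1:**
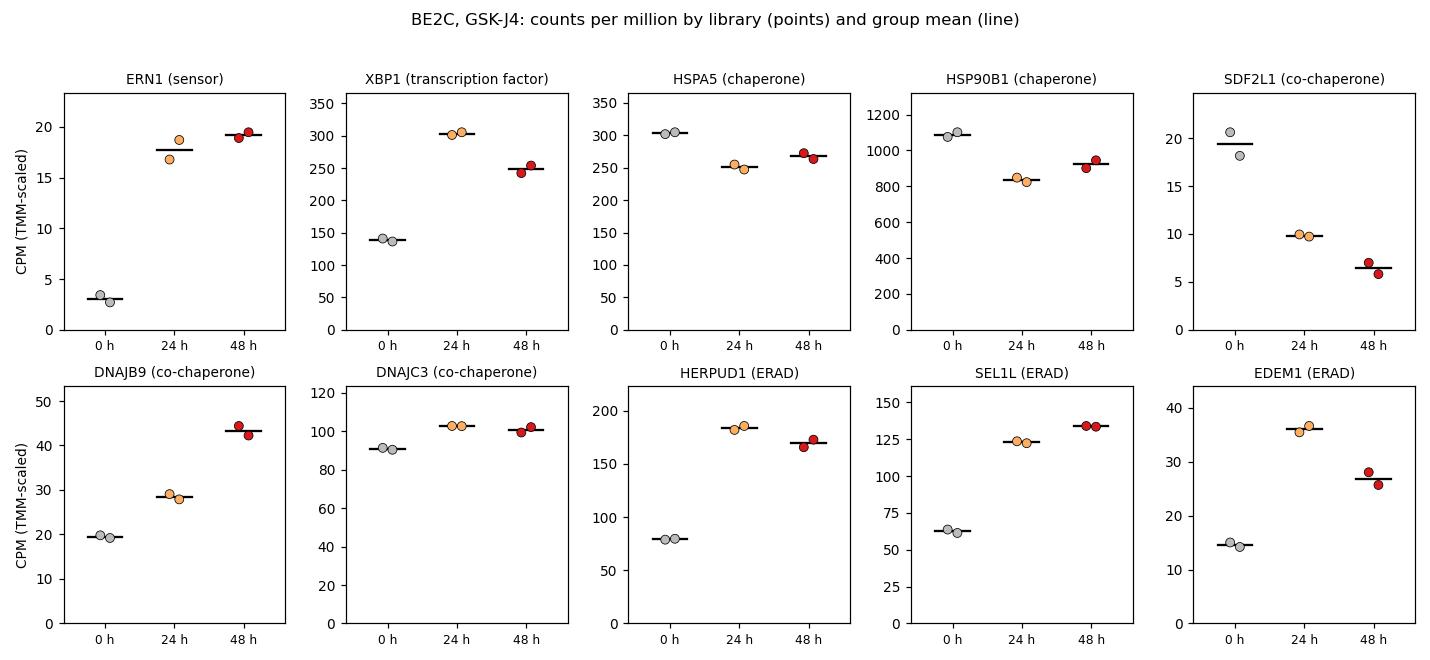
CPM (y axis, TMM-scaled, each panel from 0) of the 10 members in BE2C cells after 0, 24 and 48 h of GSK-J4 (x axis), with 1 point per library and a line at the mean of each group. HSPA5, HSP90B1 and SDF2L1 lie below the 0 h libraries at both times, and the other 7 members lie above them.

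Between 24 and 48 h, 4 members rose further and 4 fell, where 25.9% of all genes were called higher and 28% lower. Under upper-quartile scaling 58.1% of all called genes were higher, against 48.1% with TMM, and the fall of HERPUD1 was then no longer called (log2 fold change −0.06, adjusted p = 0.108, edgeR). DNAJB9 gained 0.61 ± 0.048 and SDF2L1 lost a further −0.61 ± 0.090 on the log2 scale, both in the direction of their first change. XBP1, EDEM1 and HERPUD1 came partly back, by −0.29 ± 0.029, −0.42 ± 0.051 and −0.12 ± 0.030, while SEL1L gained 0.12 ± 0.032. HSP90B1 and HSPA5 recovered in part, by 0.14 ± 0.028 and 0.095 ± 0.029. The HSPA5 call was lost without the second 24 h library (log2 fold change 0.06, adjusted p = 0.151, edgeR) or without the first 48 h library (log2 fold change 0.06, adjusted p = 0.163, edgeR). ERN1 (0.11, 95% interval −0.02 to 0.24) and DNAJC3 (−0.03, 95% interval −0.09 to 0.04) were not called, whereas upper-quartile scaling called ERN1 higher (0.17, adjusted p = 0.0218, edgeR), which gave 5 members higher and 3 lower.

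The untreated BE2C levels put these changes on scale. Per kilobase of the canonical transcript, HSP90B1 stood highest at 391 CPM per kilobase at 0 h, followed by XBP1 at 77.5, HSPA5 at 77.3, HERPUD1 at 27.8, SDF2L1 at 23.5, DNAJC3 at 16.3, DNAJB9 at 8.10, SEL1L at 7.90, EDEM1 at 2.39 and ERN1 at 0.388. The libraries of XBP1 and HSPA5 overlapped in this order, and so did those of DNAJB9 and SEL1L, whereas the other neighbours were apart. Per kilobase, HSPA5, HSP90B1 and SDF2L1, which fell, were thus among the 5 highest members, and the members with the lowest levels were among those that rose. Without division by length, SDF2L1 averaged 19.4 CPM at 0 h, level with DNAJB9 at 19.5 CPM, which rose.

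The wider lists of the secretory pathway are given beside the shares of all genes at 48 h, 37.1% called higher and 34.4% lower. Of 16 other folding enzymes and chaperones of the ER lumen, 10 were lower and 5 higher at 48 h, with a median log2 fold change of −0.41 against 0.055 over all genes. The lowest were PDIA4, a protein disulphide isomerase, at −0.91 ± 0.030 and DNAJB11, a co-chaperone of BiP, at −0.88 ± 0.042. The highest were ERO1B and ERO1A, oxidases that recharge the disulphide isomerases, at 1.17 ± 0.22 and 0.63 ± 0.031. At 24 h the same list had 9 lower and 4 higher.

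Of 11 other ERAD genes, 10 were tested and 5 were higher and 3 lower at 48 h, with a median of 0.076. They included the lectin OS9 at 0.28 ± 0.031 and SYVN1, which encodes the ligase HRD1, at 0.23 ± 0.10, while the conjugating enzyme UBE2G2 fell by 0.50 ± 0.034 and EDEM2 by 0.25 ± 0.071 on the log2 scale. The increases of HERPUD1, SEL1L and EDEM1 were each above the highest value of this list at 48 h, that of OS9. Of 15 genes of translocation and vesicle transport, 6 were higher, led by SEC61G at 0.43 ± 0.037 and SPCS3 at 0.35 ± 0.035, and 5 were lower, down to SEC61B at −0.74 ± 0.041 and SSR3 at −0.38 ± 0.028. Those counts are near the shares of all genes, 37.1% higher and 34.4% lower. Among the remaining sensors and processing proteases, MBTPS2 (0.38 ± 0.059) and ATF6 (0.33 ± 0.031) were higher, ATF6B (−0.39 ± 0.052) and MBTPS1 (−0.26 ± 0.030) were lower, and EIF2AK3, which encodes PERK, was not called (0.080 ± 0.053).

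The ATF4 branch rose in every one of its 12 listed genes at both times. Of all genes, 27.3% were called higher at 24 h and 37.1% at 48 h. The ATF4 list, like the others, was chosen with earlier results of these data known, so its count is descriptive. The list's median stood at 2.18 after 24 h and at 1.77 after 48 h. At 48 h the highest were SLC7A11, the cystine transporter, at 3.64 ± 0.048 and CHAC1, a glutathione-degrading enzyme, at 3.17 ± 0.065, and the lowest were ATF4 itself at 0.63 ± 0.028 and the serine synthesis enzyme PSAT1 at 0.96 ± 0.031. Cytosolic heat shock genes, which mark protein misfolding outside the ER, had 2 higher and 5 lower of 11 at 48 h, between HSPH1 at −0.85 ± 0.029 and HSPA1B at 0.57 ± 0.068. HSPA1B and HSPA1A are near-identical copies, so that value is uncertain. The changes of HSPA5, HSP90B1 and SDF2L1 were of the opposite sign to those of all 12 ATF4-branch genes in the same libraries. Those of the other 7 members had the same sign as the ATF4 branch.

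**Figure D2:**
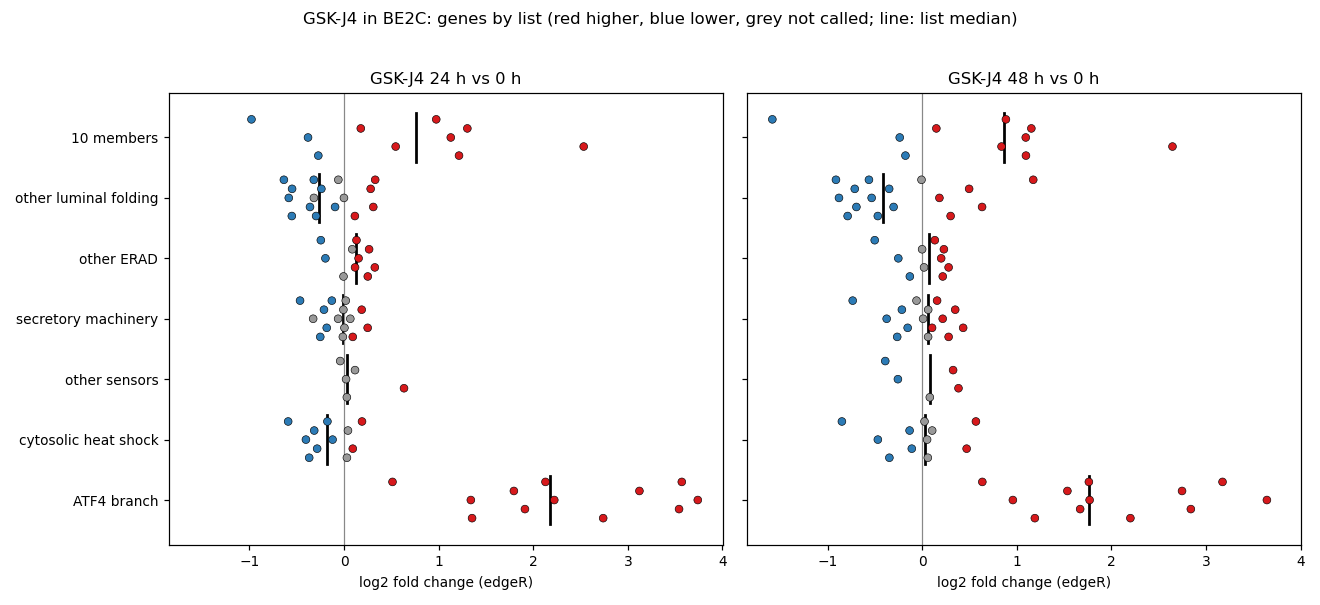
Log2 fold changes (x axis) of the 10 members and of 6 further gene lists (y axis) in BE2C cells after 24 h (left) and 48 h (right) of GSK-J4, 1 point per gene, red where called higher, blue where called lower and grey where not called, with a line at the median of each list. The luminal folding list sits mostly below 0 with medians of −0.27 and −0.41, and the ATF4 branch lies wholly above 0 with medians of 2.18 and 1.77.

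Members that share an element went in both directions, although each member that fell held an ERSE or ERSE-II match. A link between the elements and the direction was not tested. Of the 3 with an exact ERSE, HSPA5 and HSP90B1 fell and XBP1 rose, and of the 2 with ERSE-II, SDF2L1 fell and HERPUD1 rose. HERPUD1 was the member that also held a CARE match. SEL1L, EDEM1, ERN1, DNAJB9 and DNAJC3, with no listed motif in the window, all rose.

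Libraries labelled siKDM6B were compared with siCtrl to ask whether lowering 1 target of the inhibitor gave the same pattern. The targeted gene checks these labels first: KDM6B read 6.47 and 8.76 CPM in the siCtrl libraries and 8.98, 7.11 and 8.25 CPM in those labelled N1, N2 or N33, a log2 difference of 0.092 with a 95% interval of −0.63 to 0.81. A lower KDM6B transcript was thus not seen in the libraries labelled siKDM6B. The paper reports KDM6B knockdown with siRNAs in BE2C cells beside immunoblots, and protein was not measured here. In the GSK-J4 libraries the KDM6B transcript was itself higher, by 1.07 ± 0.078 at 24 h and 1.58 ± 0.073 at 48 h on the log2 scale.

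The test took the 3 libraries labelled siKDM6B, each of a different siRNA, as 1 group. Its p-values and SE therefore include differences between siRNAs and do not measure the spread between libraries of the same siRNA. None of the 10 members was called, and edgeR called 0 of all 17472 genes tested (0%), where 1615 had an unadjusted p under 0.05, limma-voom also called 0 and DESeq2 called 164. The 3 libraries labelled siKDM6B varied among themselves, with summed neuroblastoma markers of 719 to 2386 CPM against 2117 to 2227 CPM in the siCtrl libraries, and summed markers of other cell types of 64.4 to 205 CPM against 80.6 to 87.5 CPM; the part of this spread in the result was not tested. The levels of several members nevertheless did not overlap. In 5 members all 3 libraries labelled siKDM6B lay above both siCtrl libraries, and in 3 all lay below, where 16.3% and 16.8% of all genes did so.

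SEL1L showed the widest gap, from 65.1 and 65.0 CPM in the siCtrl libraries to 118, 120 and 146 CPM with N1, N2 and N33 (log2 fold change 0.98 ± 0.22, adjusted p = 0.52 with edgeR and 0.0357 with DESeq2). It was the 1 member that DESeq2 called. ERN1 read 3.66 and 4.44 CPM in the siCtrl libraries and 5.86, 6.44 and 8.98 CPM in the others (log2 fold change 0.81 ± 0.34, adjusted p = 0.544, edgeR). EDEM1 read 15.7 and 14.3 CPM against 21.5, 24.6 and 28.1 CPM (0.72 ± 0.25, adjusted p = 0.523, edgeR). In each of these genes the N33 library gave the highest value, and no siCtrl library reached the siRNA libraries.

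DNAJB9 read 45.7 and 44.6 CPM in the siCtrl libraries and 58.7, 61.7 and 68.0 CPM in the others, and DNAJC3 108 and 99.6 CPM against 126, 132 and 118 CPM. On the lower side, XBP1 read 179 and 175 CPM in the siCtrl libraries against 136, 148 and 128 CPM, and SDF2L1 19.7 and 18.0 CPM against 15.5, 14.2 and 11.6 CPM. HSP90B1 read 1178 and 1145 CPM against 1127, 1018 and 897 CPM, so that its N1 library was close to the controls. HSPA5 overlapped, at 284 and 378 CPM in the siCtrl libraries and 367, 325 and 237 CPM in the others (log2 fold change −0.095, 95% interval −0.74 to 0.55), and HERPUD1 overlapped too, at 92.5 and 96.2 CPM against 98.6, 87.2 and 90.4 CPM. XBP1 and HERPUD1 thus did not take the direction they had with GSK-J4, and the difference between the experiments was not tested.

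**Figure D3:**
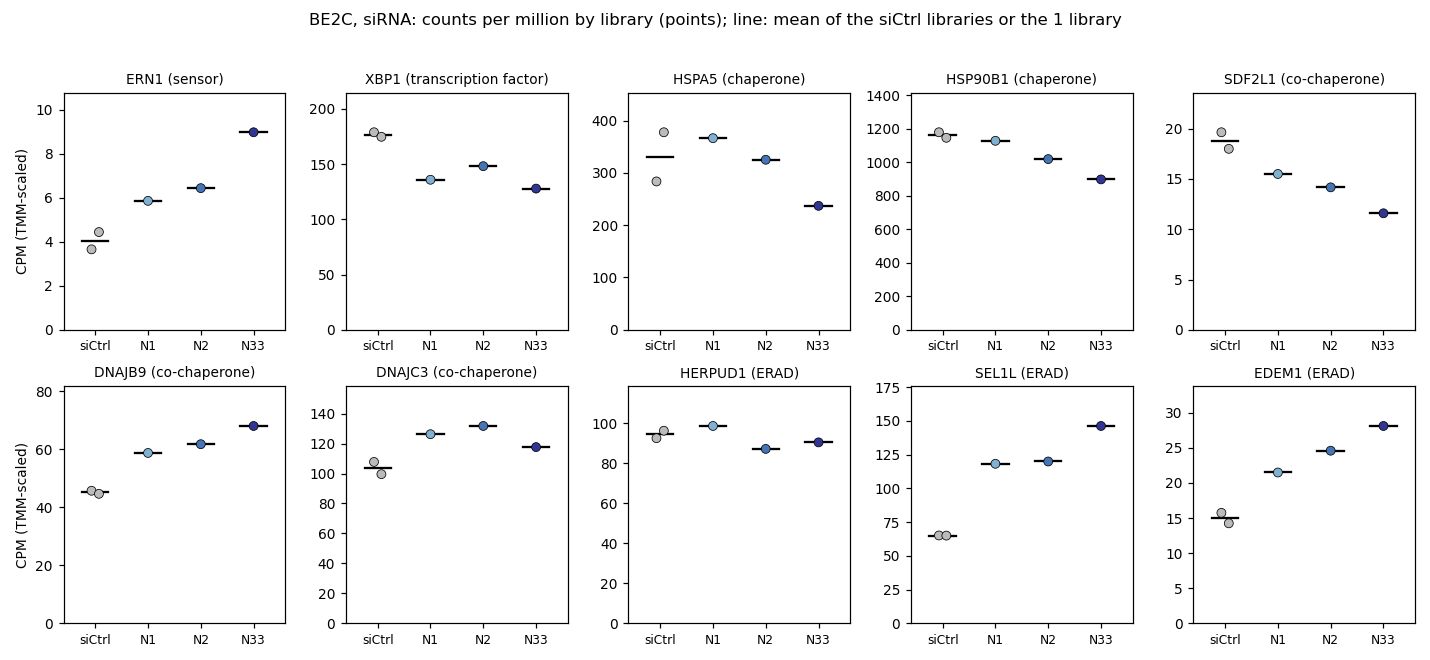
CPM (y axis, TMM-scaled, each panel from 0) of the 10 members in BE2C cells with control siRNA or with an siRNA (N1, N2 or N33) to KDM6B (x axis), 1 point per library, with a line at the mean of the 2 siCtrl libraries or at the single library. SEL1L goes from 65 CPM to between 118 and 146 CPM, and HSPA5 overlaps between the groups.

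The untreated lines of the palbociclib experiment differed in their levels of these genes before any drug. All 10 members passed the test of a difference between the 4 control groups, where 91.2% of all 22133 genes did. NB1691 was the highest line for 9 of them, with both of its libraries above every library of the next line, by 1.70-fold for XBP1 to 6.22-fold for HSPA5. These folds rest on TMM factors of 0.8133 and 0.8236 in untreated NB1691 and of 1.068 to 1.108 in the other untreated lines. The lower factors raise the CPM of NB1691, and folds between lines by library totals were not computed. The share of all genes for which NB1691 was likewise highest was not counted. Whether this is particular to the members is therefore not known. With NB1691 left out, an alternative chosen after its levels were seen, 6 members still differed between the other 3 lines (ERN1, HSPA5, HSP90B1, DNAJB9, DNAJC3 and HERPUD1), and XBP1, SDF2L1, SEL1L and EDEM1 did not pass.

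HSPA5 read 2305 and 2296 CPM in untreated NB1691 cells, 347 and 393 CPM in CHLA15, 342 and 377 CPM in CHLA20, and 185 and 186 CPM in NB1643. CHLA15 and CHLA20 overlapped, and NB1643 was apart from both. HSP90B1 followed the same order, with means of 3410 ± 29.0 (SD, n = 2) CPM in NB1691, 840.0 ± 20.3 CPM in CHLA15, 739.6 ± 13.2 CPM in CHLA20 and 424 ± 16.8 CPM in NB1643. Per kilobase, HSPA5 stood at 587 CPM per kilobase in NB1691 and between 47.3 and 94.3 in the other lines.

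SEL1L stood at 254 ± 3.18 CPM in NB1691 and at 73.6 to 76.0 CPM in the other lines, which overlapped, and EDEM1 at 56.7 ± 0.86 CPM against 16.01 to 17.88 CPM. HERPUD1 averaged 180 ± 3.39 CPM in NB1691, 67.5 CPM in CHLA20, 58.4 CPM in CHLA15 and 44.5 CPM in NB1643. SDF2L1 averaged 40.3 ± 0.32 CPM against 11.2 to 12.4 CPM, and DNAJC3 105 ± 2.26 CPM against 19.5 to 43.3 CPM. DNAJB9 averaged 58.9 ± 0.47 CPM in NB1691 and 23.6 to 32.2 CPM elsewhere. ERN1 was the exception, at 13.5 ± 0.66 CPM in NB1691, where its libraries overlapped those of CHLA20 (15.2 ± 1.67 CPM) and CHLA15 (13.3 ± 0.82 CPM). Among the members and with TMM scaling, the high level of NB1691 therefore held for chaperones, ERAD genes and XBP1, and not for the sensor. The order of the lines for ERN1 under other scalings was not examined.

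With palbociclib, HSPA5, HSP90B1 and SDF2L1 fell in NB1691, whereas HSPA5 rose in CHLA15 and CHLA20. In NB1691, 2 members were higher and 4 lower, where 17.4% and 15.5% of all genes were called. With library totals in place of TMM 35.9% of the genes called in NB1691 were higher, against 52.9% with TMM, and 1 member was higher. HSPA5 read 2305 and 2296 CPM untreated and 1178 and 1210 CPM with the drug, a log2 fold change of −0.95 ± 0.058 (adjusted p = 3.17e-10, edgeR). HSP90B1 went from 3389 and 3430 CPM to 2309 and 2316 CPM (−0.56 ± 0.046) and SDF2L1 from 40.6 and 40.1 CPM to 24.6 and 22.0 CPM (−0.79 ± 0.10). The treated NB1691 libraries were below both controls in all 3 genes and still above every library of the other lines. The summed neuroblastoma markers of NB1691 went from 389 to 427 CPM untreated to 591 to 602 CPM with the drug, with 5 of 7 called higher, and the summed markers of other cell types from 1771 to 1789 CPM to 2138 to 2155 CPM, where LUM alone was called (0.27, adjusted p = 0.0386, edgeR); their part in the result was not tested.

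In the same cells HERPUD1 rose, from 178 and 183 CPM to 217 and 206 CPM (0.23 ± 0.051), opposite to HSPA5, HSP90B1 and SDF2L1. The other ERAD members, SEL1L and EDEM1, did not rise with it. ERN1 was higher at 0.28 ± 0.097 (adjusted p = 0.0332, edgeR), and this call was lost without any single NB1691 library (adjusted p from 0.0653 to 0.2, edgeR). XBP1 was lower at −0.18 ± 0.051, a call that was lost without the second NB1691 control library (−0.12, adjusted p = 0.208, edgeR) or the second palbociclib library (−0.17, adjusted p = 0.0913, edgeR). DNAJB9 (0.23), DNAJC3 (−0.02), SEL1L (−0.09) and EDEM1 (−0.15) were not called. Some other fits did call 3 of these. DNAJB9 was called higher with upper-quartile scaling (adjusted p = 0.0375, edgeR), without a filter (adjusted p = 0.00992, edgeR) and with NB1691 fitted alone (adjusted p = 4.87e-05, edgeR). EDEM1 was called lower with limma-voom (adjusted p = 0.0427), library totals (adjusted p = 0.0146, edgeR) and NB1691 alone (adjusted p = 0.0012, edgeR), and SEL1L with the latter 2 (adjusted p = 0.0208 and 0.0118, edgeR).

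Other folding genes of the ER lumen moved with the chaperones in NB1691, 8 lower and 2 higher of 16, among them MANF, a secreted ER stress protein, at −0.87 ± 0.062 and HYOU1, an Hsp110-type chaperone, at −0.72 ± 0.055. P4HB and SIL1 were higher, at 0.29 ± 0.050 and 0.26 ± 0.056. The list's median was −0.095 against 0.019 over all genes. Of the ATF4 branch, 7 of 12 were higher and none was lower, led by CHAC1 at 0.82 ± 0.14 and TRIB3, a pseudokinase, at 0.59 ± 0.072. Of the 11 other ERAD genes, 5 were higher and 2 lower, DERL3 at −2.15 ± 0.24 and SYVN1 at −0.19 ± 0.054.

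**Figure D4:**
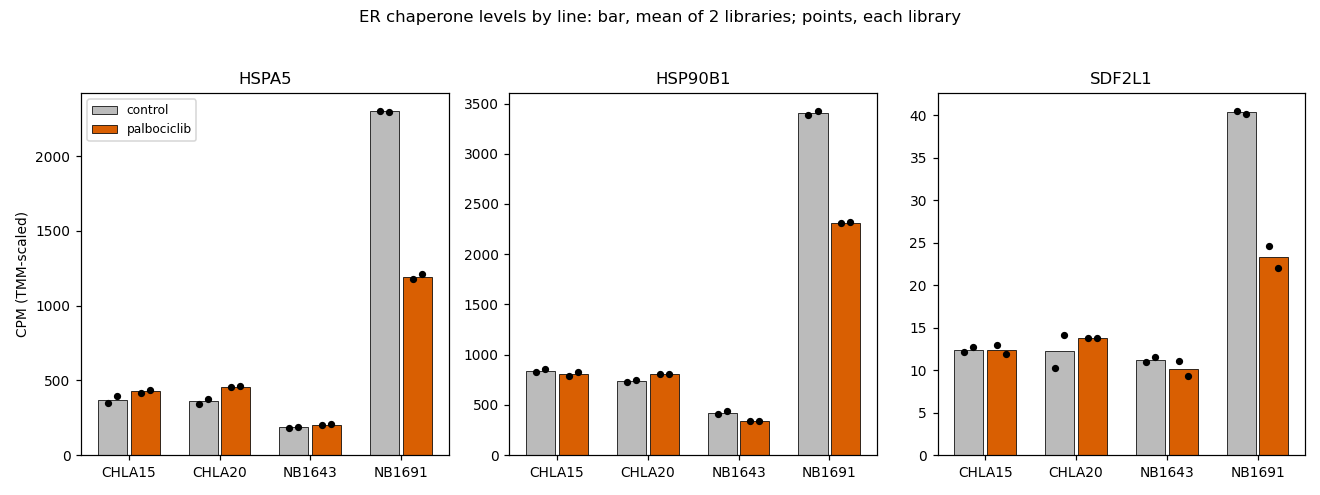
CPM (y axis, TMM-scaled, from 0) of HSPA5, HSP90B1 and SDF2L1 in the 4 lines of the palbociclib experiment (x axis), untreated (grey) and after 72 h of palbociclib (orange), bars at the mean of 2 libraries and points at each library. Untreated NB1691 stands at 2300 CPM for HSPA5 and falls to between 1178 and 1210 CPM with the drug.

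In CHLA15 and CHLA20, at 300 nM, HSPA5 and DNAJB9 were called higher and XBP1 and ERN1 lower. In CHLA15, 2 members were higher and 2 lower, where 14.2% of all genes were called higher and 15.6% lower, and in CHLA20, 3 were higher and 4 lower, against 13.7% and 15.9%. HSPA5 rose from 347 and 393 CPM to 417 and 435 CPM in CHLA15 (0.20 ± 0.058) and from 342 and 377 CPM to 455 and 461 CPM in CHLA20 (0.35 ± 0.058). The groups were apart in both lines, but the CHLA15 call was lost without its first control library (0.11, adjusted p = 0.257, edgeR) or its second palbociclib library (0.16, adjusted p = 0.129, edgeR).

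DNAJB9 rose from 22.1 and 25.2 CPM to 31.1 and 34.6 CPM in CHLA15 (0.48 ± 0.10) and from 21.9 and 26.5 CPM to 31.3 and 32.2 CPM in CHLA20 (0.40 ± 0.10), the latter not called without the first CHLA20 control library (0.24, adjusted p = 0.119, edgeR) or the second palbociclib library (0.36, adjusted p = 0.0563, edgeR). XBP1 fell in both lines, from 101 and 104 CPM to 86.6 and 82.5 CPM in CHLA15 (−0.27 ± 0.052) and from 109 and 112 CPM to 79.0 and 77.4 CPM in CHLA20 (−0.50 ± 0.052). HERPUD1 fell in CHLA20 (−0.26 ± 0.053) and was not called in CHLA15 (−0.13, 95% interval −0.24 to −0.02), where upper-quartile scaling (adjusted p = 0.0421, edgeR) and library totals (adjusted p = 0.017, edgeR) did call it lower.

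ERN1 was called lower in CHLA15 (−0.29 ± 0.099, adjusted p = 0.0357, edgeR) and CHLA20 (−0.32 ± 0.098, adjusted p = 0.0167, edgeR). The CHLA15 call was lost without either control library (adjusted p = 0.259 and 0.0606, edgeR) or the first palbociclib library (adjusted p = 0.371, edgeR), and the CHLA20 call without the first control library (adjusted p = 0.174, edgeR) or either palbociclib library (adjusted p = 0.0571 and 0.101, edgeR). In CHLA20, HSP90B1 was called higher at 0.13 ± 0.046 (adjusted p = 0.0405, edgeR). This call was lost with CHLA20 fitted alone (adjusted p = 0.0917, edgeR) and without any single CHLA20 library (log2 fold changes from 0.09 to 0.13). EDEM1 was called lower in CHLA20 at −0.20 ± 0.071 (adjusted p = 0.0359, edgeR). This call was lost with library totals (adjusted p = 0.053, edgeR), without a filter (adjusted p = 0.0777, edgeR) and with CHLA20 fitted alone (adjusted p = 0.118, edgeR). It was also lost without the first control library (−0.12) or either palbociclib library (−0.22 for each). SDF2L1 was not called in CHLA20 (0.18, 95% interval −0.06 to 0.42), but was without the second control library (0.41, adjusted p = 0.00542, edgeR). Beside these changes, 11 of the 12 ATF4-branch genes were lower in CHLA15 and 11 in CHLA20, with medians of −1.19 and −1.89.

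NB1643, at 3 µM, had 2 members called. HERPUD1 was higher, from 43.2 and 45.9 CPM to 56.8 and 55.7 CPM (0.34 ± 0.054), and HSP90B1 was lower, from 412 and 436 CPM to 338 and 343 CPM (−0.32 ± 0.046). The groups were apart in both genes, where 20.3% of all genes were called higher and 19.7% lower. HSPA5 went from 185 and 186 CPM to 201 and 206 CPM, which was not called with TMM (0.13, 95% interval 0.0092 to 0.25, adjusted p = 0.0826, edgeR) and was called with DESeq2 (adjusted p = 0.0424) and with upper-quartile scaling (adjusted p = 0.0129, edgeR). Without the first NB1643 control library ERN1 was called higher too (0.37, adjusted p = 0.0169, edgeR), and without the second DNAJC3 was called lower (−0.24, adjusted p = 0.0131, edgeR). The summed neuroblastoma markers of NB1643 stood at 1924 to 1973 CPM untreated and 2711 to 2859 CPM with the drug. The summed markers of other cell types stood at 29.8 to 32.8 CPM untreated and 8.01 to 8.99 CPM with the drug, most of it LUM, and what these shifts contribute was not tested.

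The response to palbociclib differed between the lines for 6 of the 10 members (ERN1, XBP1, HSPA5, HSP90B1, SDF2L1 and HERPUD1) by edgeR's test of the line by palbociclib interaction, where 38% of all genes did. The doses differed between the CHLA and the NB lines, so line and dose cannot be told apart across those pairs. With NB1691 left out, 4 of the 6 still passed, and HSPA5 (adjusted p = 0.167, edgeR) and SDF2L1 (adjusted p = 0.341, edgeR) did not. HERPUD1 (adjusted p = 0.000265, edgeR), XBP1 (adjusted p = 0.000139, edgeR), HSP90B1 (adjusted p = 0.00106, edgeR) and ERN1 (adjusted p = 0.0421, edgeR) differed also among the other 3 lines.

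**Figure D5:**
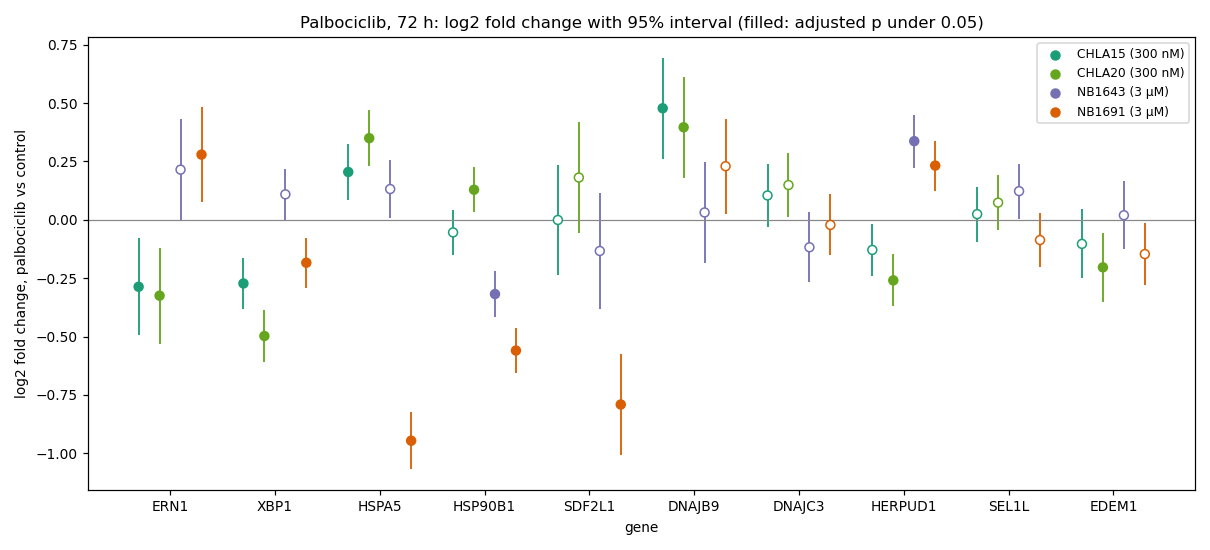
Log2 fold change with palbociclib (y axis, with 95% interval) of the 10 members (x axis) in each of 4 lines, 2 libraries against 2, filled where the adjusted p was under 0.05. HSPA5, HSP90B1 and SDF2L1 of NB1691 lie lowest, at −0.95, −0.56 and −0.79, and HERPUD1 lies above 0 in NB1643 and NB1691 and below 0 in CHLA15 and CHLA20.

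Across the 27 libraries, each set against the controls of its own line and experiment, HSP90B1 (Pearson r = 0.786) and SDF2L1 (r = 0.581) were the members whose levels went most with HSPA5, while the other 7 had r between −0.352 and 0.0611. Among 10350 genes with at least 10 CPM on average, and with members left out of the ranking, PTBP2 (r = 0.854), FBXO30 (r = 0.827), NRP1 (r = 0.819), HCFC1R1 (r = 0.815) and VMP1 (r = 0.814) were the most alike. These values describe libraries that share lines, controls and depth, and they are given with no test. HSPA5 changed most with palbociclib in NB1691 (−0.95). There PTBP2, FBXO30, NRP1, HCFC1R1 and VMP1 were all lower, from −1.11 for NRP1 to −0.37 for VMP1. With GSK-J4, NRP1 was not called (0.025 at 24 h and 0.049 at 48 h), whereas the others were lower at both times. How far r rests on NB1691 was not tested.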

How the data were processed

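The deposited files hold raw counts per gene, made by the authors with htseq-count 0.6.1 from paired-end reads mapped to GRCh37-lite; the submitters' processing notes name STAR 2.5.3a and HTSeq. The methods give the annotation as a mouse Gencode release, although the gene symbols are those of human genes. For BE2C the 2 files of each library were summed, since files of 1 library differed less (chi-square per degree of freedom 1.48 to 1.65) than files of different libraries (1.89 to 4.33). That such files belong to 1 library was inferred from the sample titles. Groups came from the labels.

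The test was edgeR's quasi-likelihood F test (version 4.0.16, under R 4.3.3) with TMM scaling and filterByExpr, 1 fit for each of the 3 experiments, with Benjamini-Hochberg adjustment over all genes tested and a threshold of 0.05. Levels are counts per 1000000 of the TMM-scaled library (CPM), a level per kilobase divides by the canonical transcript (GENCODE v44, GRCh37), and ± gives the SE of a log2 fold change. DESeq2 1.42.0, limma-voom (limma 3.58.1), other scalings, no filter, each file as a sample, left-out libraries and a replicate block were the alternatives. The edgeR steps were tested on simulated data. The genes named beside the members were the 2 highest and 2 lowest called genes of each list. The members and the lists were chosen with earlier results of these data known. Whether replicate numbers pair samples was checked: same-numbered libraries did not deviate together (correlations of −0.063 to 0.048). The authors' protocol label speaks of xenograft tissue, whereas the methods speak of cultured cells. A further ERAD gene and a further neuroblastoma marker are not reported here.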

Additional observations from a re-analysis of the deposited data

Results flagged for a closer look

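The response to palbociclib differed between the 4 lines by edgeR's test of the line by palbociclib interaction for HSPA5 (adjusted p = 1.17e-09), HSP90B1 (5.75e-07), HERPUD1 (8.05e-06), XBP1 (3.03e-05), SDF2L1 (2.47e-04) and ERN1 (0.00188). Line and dose change together between the CHLA and NB lines.

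The change with GSK-J4 at 48 h differed from that at 24 h, by the direct edgeR comparison of the treated groups, for 8 members. On the log2 scale DNAJB9 was higher at 48 h by 0.61, HSP90B1 by 0.14, SEL1L by 0.12 and HSPA5 by 0.095, whereas the differences of SDF2L1, EDEM1, XBP1 and HERPUD1 were −0.61, −0.42, −0.29 and −0.12. Both times share the 0 h libraries, which do not enter this comparison.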

How the results depend on the processing

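No member that was called changed direction under any alternative run, whereas some that were not called did, such as HSPA5 with siKDM6B (−0.30 to 0.12) and DNAJB9 in NB1643 (−0.15 to 0.20). Of the member values recomputed 1182 kept their side of the threshold, 40 moved past it and 38 no longer passed. For the libraries labelled siKDM6B, where edgeR called 0 genes, DESeq2 called 164 genes and 1 member higher (SEL1L), and the fit without a filter called 84 genes. The fit with each file as a sample called 2354 genes, with 5 members higher and 1 lower. It counts files that the titles place in 1 library as separate samples. In CHLA15, DESeq2 called 1 member lower in place of 2. In NB1643, where 1 member was higher, DESeq2 called 4, upper-quartile scaling 5, the fit without a filter 2 and the fit with a replicate block 2. In NB1691, library totals gave 1 member higher in place of 2 and 6 lower in place of 4, and turned the split of called genes to 2762 higher and 4929 lower, from 3847 and 3422; upper-quartile scaling, no filter, the replicate block and the line fitted alone gave 3 higher, and limma-voom, the replicate block and the line alone 5, 5 and 6 lower. The replicate block called DNAJB9 (adjusted p = 0.0175, edgeR) and EDEM1 (adjusted p = 0.0308, edgeR) there, and HSPA5 in NB1643 (adjusted p = 0.047, edgeR). In CHLA15, upper-quartile scaling and library totals called 3 members lower in place of 2. Without NB1691, 4650 genes differed in response, against 8403 with it, and 6 members differed between untreated lines, against 10. The cause was not tested in any of these.

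Leaving out 1 library at a time gave 1 to 2 members higher and 1 to 2 lower in CHLA15, 1 to 3 higher and 2 to 4 lower in CHLA20, 1 to 2 higher and 1 to 2 lower in NB1643, 1 higher and 3 to 4 lower in NB1691, 3 to 4 higher between 24 and 48 h of GSK-J4, and 6 to 7 members with a line by palbociclib interaction. Genes called higher went from 3140 to 2022 in CHLA15 without the second control library, from 3026 to 1939 or 1910 in CHLA20 without the first or second palbociclib library, and from 3847 to 2515 or 2552 in NB1691 without the first palbociclib or first control library. These fits have 1 sample in an arm, which is assumed to vary like the other groups. The replicate numbers did not pair the libraries. The replicate block called 9939, 12727 and 9658 genes at 24 h, at 48 h and between them, and 6717, 6681, 8956 and 7450 in CHLA15, CHLA20, NB1643 and NB1691. Upper-quartile scaling took the all-gene median at 48 h from 0.055 to 0.16 on the log2 scale, and HSPA5, HSP90B1 and SDF2L1 stayed lower and the other 7 members higher. The lowest member count in a library was 96, and most groups had 2 libraries.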
